A study of Mus musculus with 18 samples.

Results

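The transforming growth factor beta (TGF-beta) and activin genes described here are 9 of the 32285 genes counted in single cells of mouse skin: the TGF-beta ligand genes Tgfb1, Tgfb2 and Tgfb3, the activin subunit genes Inhba and Inhbb, the follistatin family genes Fst, Fstl3 and Fstl1, and Tgfbi, which encodes a matrix protein first found as induced by TGF-beta. Each was found once, by its symbol, in all 10 mRNA libraries. The genes were chosen with results of these libraries known, so their differences between the arms are given as a description, with a standard error (SE) and without a p-value. All mice had the same surgery, in which a path under the skin was opened from an incision near the tail up to the neck. In the expanded arm a hydrogel expander was then left under the skin near the neck, held by stitches, while control mice had no implant. Skin was taken on day 1, 2 or 4, and DAPI-negative, that is living, cells were sorted. Each arm had 5 libraries, 2 on day 1, 2 on day 2 and 1 on day 4, and a library pooled the mice of 1 arm and 1 sequencing round. The labels give no strain, sex or age, and no skin without surgery was among the samples.

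TGF-beta ligands are secreted in a latent complex, and once released they signal through paired receptor kinases to SMAD2 and SMAD3. Activins are dimers of the subunits that Inhba and Inhbb encode, bind activin type II receptors and use the same SMAD proteins. Follistatin, the product of Fst, and the related Fstl3 product bind activin and block its access to the receptors, whereas Fstl1 shares a domain with follistatin but is a separate secreted glycoprotein. In skin, activin A is known from wounds, where it promotes granulation tissue, and follistatin takes part in hair follicle growth.

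The stretches before the start of Inhba and Inhbb, both higher in expanded fibroblast-like cells, and of Tgfb2, which was lower there, are shown. Their differences in those cells are the largest among the 7 genes with a sequence window. No window was available for Fst, whose difference was larger than that of Inhbb, or for Tgfb3, so neither was searched for motifs. Each is 250 bases of RefSeq sequence on build GRCm38.p6, read 5′ to 3′ on the strand of the gene, with capitals where 1 of 6 short motifs matched on either strand.
Inhba, chr13:16011601-16011850, plus strand: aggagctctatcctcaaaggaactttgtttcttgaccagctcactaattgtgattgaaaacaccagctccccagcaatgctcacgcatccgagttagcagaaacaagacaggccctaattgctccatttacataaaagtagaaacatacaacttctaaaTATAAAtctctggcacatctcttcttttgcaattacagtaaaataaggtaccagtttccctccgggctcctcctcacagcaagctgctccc
Inhbb, chr1:119422249-119422498, minus strand: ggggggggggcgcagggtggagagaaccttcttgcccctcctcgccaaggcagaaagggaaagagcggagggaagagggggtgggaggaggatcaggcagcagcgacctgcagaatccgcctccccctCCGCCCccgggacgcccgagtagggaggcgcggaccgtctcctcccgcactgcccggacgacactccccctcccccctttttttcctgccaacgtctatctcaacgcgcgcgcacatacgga
Tgfb2, chr1:186705990-186706239, minus strand: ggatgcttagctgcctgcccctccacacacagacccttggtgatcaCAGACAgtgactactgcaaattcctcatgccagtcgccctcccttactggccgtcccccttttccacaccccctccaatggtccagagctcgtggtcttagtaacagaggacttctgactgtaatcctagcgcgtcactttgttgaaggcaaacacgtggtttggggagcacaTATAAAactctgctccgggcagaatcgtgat
The capitals mark the TATA box letters TATAAA at -91 in Inhba and -31 in Tgfb2, counted from the start with -1 as the last base shown. They also mark a SMAD motif, CAGACA, at -204 in Tgfb2, and a GC box, GGGCGG, at -122 in Inhbb. Over 27025 windows of the same length, TATAAA was found in 13.0%, CAGACA in 17.1% and GGGCGG in 32.9%. The AP-1 motif TGANTCA (6.87% of windows), the cyclic AMP response element TGACGTCA (1.62%) and the CArG box (1.40%) had no match in the windows of Inhba, Inhbb, Tgfb2, Tgfb1, Fstl3, Fstl1 or Tgfbi. Among the windows not shown, that of Tgfb1 had 5 GC boxes, that of Fstl3 had 4 beside a SMAD motif and a TATA box, that of Fstl1 had 2 and that of Tgfbi had 1. These matches describe letters and say nothing of binding. The Inhba and Tgfb2 windows lie inside the genes' full RefSeq extents, chr13:16004256-16031609 and chr1:186622787-186709697, before the start of a shorter transcript, and an exon of the antisense transcript Gm29491 reaches into the Tgfb2 window. RefSeq places Inhbb at chr1:119415463-119422248, Fst at chr13:114452262-114458989 on the minus strand, Tgfbi at chr13:56609586-56639359 and Tgfb1 at chr7:25687002-25705077. Fstl1 lies at chr16:37777055-37836516, Fstl3 at chr10:79777274-79782630 and Tgfb3 at chr12:86056743-86079041 on the minus strand. All 9 are annotated as protein-coding.

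The 10 libraries held between 17726739 and 75470722 gene UMIs (unique molecular identifiers, which mark single captured molecules). After filtering, 45488 cells remained, 28452 control and 17036 expanded, in 36 clusters, of which 31 were named as 18 classes by marker genes. Levels are UMIs of a gene per 1000000 gene UMIs (CPM), from counts summed per class and library, and 7 classes each held at least 1% of the UMIs of the 9 genes. These were fibroblast-like cells with 51.9%, macrophage or monocyte-like with 12.4%, basal keratinocyte-like with 8.79%, dendritic-like with 5.98%, dermal papilla or sheath-like with 5.97%, endothelial-like with 1.31% and smooth muscle-like cells with 1.22%. The unnamed clusters, which entered no class fit, held 6.99%. The largest of them, cluster 4 with 2638 cells, was led by Lrrc15, Tnn and Gpc3. Most fixed markers were abundant in their class, but the dermal papilla or sheath-like class was low in Sox18 (median 1.28 CPM), Corin (6.36 CPM) and Rspo3 (31.5 CPM). It was high in Coch (10966 CPM) and Crabp1 (2400 CPM). The dendritic-like class was low in Clec9a (1.20 CPM) and Xcr1 (3.49 CPM), markers of one dendritic subset, and high in H2-Ab1 (11805 CPM). It also carried macrophage markers, which summed to between 6175 and 10120 CPM in control libraries and 3477 and 6676 CPM in expanded ones, although only 2 of the 8 markers were lower in the expanded arm.

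Each gene had its own distribution over the classes, shown in the map of mean CPM. Classes were built from the same cells, so no class was tested against another. Tgfb1 was highest in natural killer or innate lymphoid-like cells (631 ± 96.7 CPM in control and 635 ± 64.9 in expanded libraries, SD, n = 5 each). T cell-like cells (317 ± 30.4 CPM in controls), macrophage or monocyte-like cells (300 ± 26.1) and dendritic-like cells (278 ± 32.1) followed, with ranges that overlapped. Tgfb2 was highest in skeletal muscle or satellite-like cells among the control libraries, at 240 ± 82.7 CPM (n = 3), above every fibroblast-like value there (131 ± 38.4, n = 5). Tgfb3 was highest in smooth muscle-like cells, at 80.9 ± 10.3 CPM in control libraries, followed by lymphatic endothelial-like cells at 52.1 ± 12.4 CPM. Inhba led in dermal papilla or sheath-like cells at 299 ± 219 CPM in controls, with neutrophil-like cells at 201 ± 145 (n = 3) and smooth muscle-like cells at 148 ± 27.4 inside that spread. Fst led in basal keratinocyte-like cells at 648 ± 157 CPM in controls, and suprabasal (397 ± 166, n = 4) and hair follicle keratinocyte-like cells (250 ± 93.9, n = 4) came next. Fstl1 was above all a fibroblast-like gene, at 1187 ± 94.2 CPM in controls against 401 ± 108 in the dermal papilla or sheath-like class, and these ranges did not overlap. Fstl3 was modest everywhere, with its highest mean in dermal papilla or sheath-like cells (69.3 ± 16.2 CPM in controls).

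**Figure D1:**
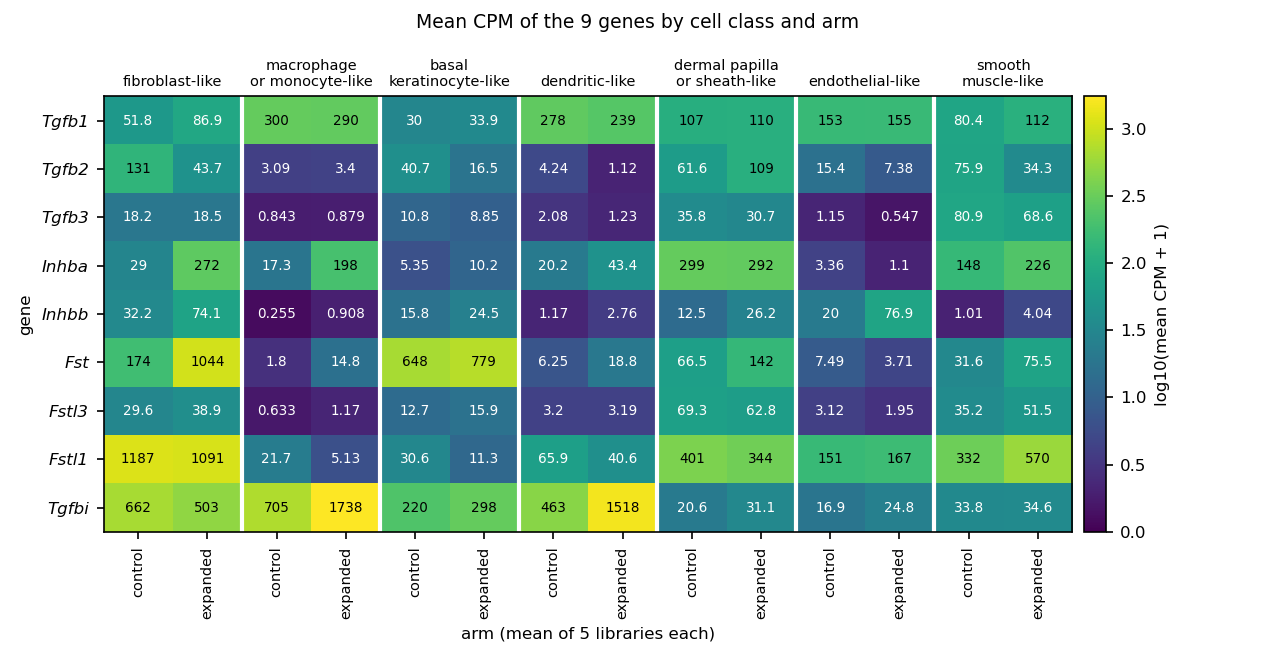
Mean CPM of the 9 genes (rows) in the 7 classes and both arms (columns, 5 libraries each), coloured by log10 of the mean CPM plus 1, with the mean printed in each cell. Fst stood at 174 and 1044 CPM in control and expanded fibroblast-like cells, and Tgfbi at 463 and 1518 CPM in dendritic-like cells.

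In fibroblast-like cells the activin subunit and follistatin genes were higher in the expanded arm, Tgfb1 was slightly higher, and Tgfb2 and Tgfbi were lower. Of the 9 genes, 4 were past the threshold upwards and 2 downwards in the fit over all genes (edgeR's quasi-likelihood test, Benjamini-Hochberg adjusted p of 0.05), where 34.4% of the 13251 genes tested were past it. The genes were chosen on this contrast, so nothing is read from that count or from how many of them separate the arms. How many of all genes separate the arms without overlap was not counted in this or any other class. Scaling by plain CPM in place of the fit's TMM factors moved the median log2 difference over all genes by 0.22 in this class, 0.17 in dendritic-like, 0.12 in smooth muscle-like, 0.11 in macrophage or monocyte-like and 0.10 in endothelial-like cells. Log2 differences below are on the TMM scale unless CPM is named.

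Fst, the activin antagonist, stood at 86.9 and 159 CPM in the day 1 control libraries (rounds 1 and 2), 189 and 179 on day 2 and 255 on day 4. Expanded fibroblast-like cells had Fst at 412 and 1551 CPM on day 1, 1328 and 1054 on day 2 and 876 on day 4. The lowest expanded library was above the highest control library. The means were 174 ± 60.6 and 1044 ± 437 CPM (SD, n = 5 each), a log2 difference of 2.40 (SE 0.34). Inhba, which encodes the subunit of activin A, stood at 10.8, 22.4, 18.0, 50.1 and 43.5 CPM in the control libraries in the same order. In the expanded libraries Inhba stood at 30.9 and 70.0 CPM on day 1, 393 and 410 on day 2 and 455 on day 4. The arms overlapped through the day 1 round 1 expanded library, and the day 2 and day 4 expanded libraries were above every control library. The means were 29.0 ± 17.0 and 272 ± 204 CPM, with a log2 difference of 2.53 (SE 0.44). Inhbb, the subunit of activin B, had 21.4, 34.0, 14.1, 38.9 and 52.7 CPM in control libraries and 61.0, 102, 63.2, 74.7 and 70.1 CPM in expanded ones. All expanded libraries exceeded all control libraries, by a log2 difference of 1.01 (SE 0.27).

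Among the ligands, Tgfb2 went the other way in fibroblast-like cells. It stood at 169, 161, 121, 72.1 and 130 CPM in the control libraries and at 64.8, 40.6, 39.2, 37.6 and 36.4 CPM in the expanded ones. The lowest control library, day 2 round 2, was above the highest expanded one, day 1 round 1. The log2 difference of Tgfb2 was -1.82 (SE 0.20). Tgfb1 had 55.5, 64.5, 34.6, 58.5 and 46.1 CPM in control and 72.0, 74.2, 95.4, 96.1 and 96.8 CPM in expanded libraries, again without overlap but with a smaller log2 difference of 0.49 (SE 0.18). Tgfb3 did not separate the arms: its means were 18.2 ± 1.64 and 18.5 ± 6.8 CPM, and its difference was slightly above 0 by CPM (fold 1.02) and below it on the TMM scale (log2 -0.32, SE 0.21). Tgfbi stood at 797, 680, 706, 533 and 594 CPM in control and 468, 377, 497, 584 and 588 CPM in expanded fibroblast-like cells. It was lower in 4 of 5 pairs of libraries, and the ranges overlapped on days 2 and 4 (log2 -0.66, SE 0.18). Fstl1 (1187 ± 94.2 against 1091 ± 137 CPM, log2 -0.38, SE 0.14) and Fstl3 (29.6 ± 4.23 against 38.9 ± 8.14 CPM, log2 0.14, SE 0.16) overlapped between the arms.

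**Figure D2:**
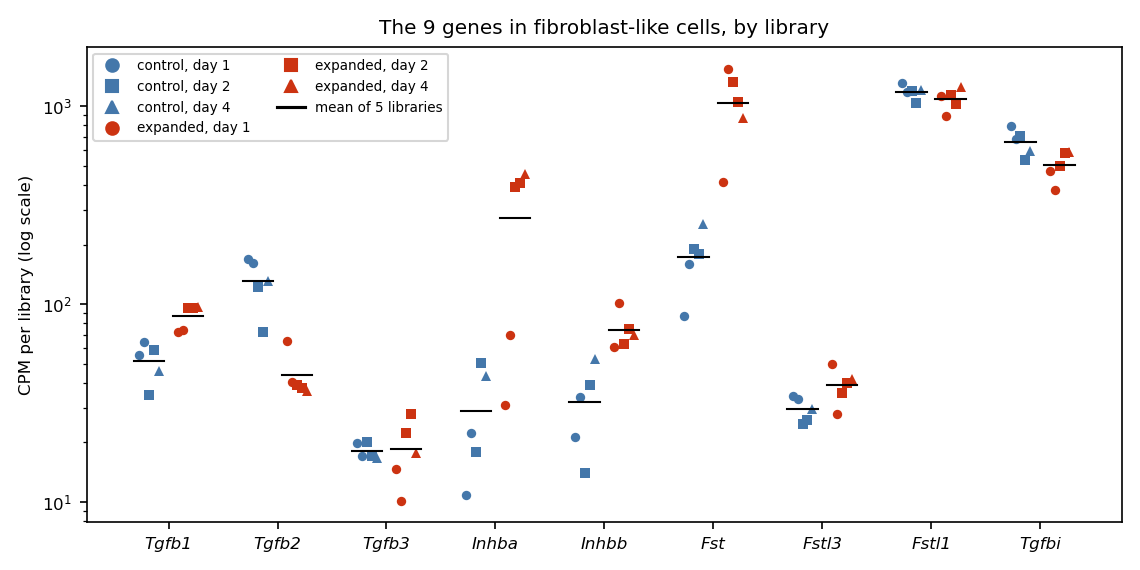
CPM of the 9 genes in fibroblast-like cells on a log scale, 1 point per library with the shape giving the day and the line giving the mean of 5 libraries. Fst, Inhbb, Tgfb1 and Tgfb2 separate the arms, and Inhba overlaps through the day 1 round 1 expanded library at 30.9 CPM. The genes were chosen on this contrast, and how many of all genes separate the arms was not counted.

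The fibroblast-like class was made of different clusters in the arms. Cluster 0, led by Col1a2, Col1a1 and Cpz, held 54.0% of the control but 11.3% of the expanded cells of the class. Cluster 10, led by Tnc, Saa3 and Ccl19, held 10.7% and 35.4%, and cluster 3, led by Igfbp2, Mme and Sema3a, 22.6% and 36.0%. Within single clusters Fst remained higher in the expanded arm: it averaged 290 ± 90.9 against 1495 ± 516 CPM in cluster 3 and 251 ± 72.2 against 1066 ± 686 CPM in cluster 10 (n = 5 each). Inhba went from 54.0 ± 21.4 to 138 ± 86.6 CPM in cluster 3 and from 63.7 ± 29.7 to 417 ± 322 CPM in cluster 10. In cluster 0 its level was low in both arms, 11.3 ± 5.62 CPM in 5 control libraries and 7.28 ± 0.57 in the 2 expanded libraries with enough cells. Tgfb2 was lower within cluster 3 (54.2 ± 27.1 against 19.3 ± 12.1 CPM) and cluster 10 (103 ± 32.1 against 42.8 ± 5.97 CPM). In cluster 0, its levels of 157 ± 40.5 and 134 ± 23.3 CPM (2 expanded libraries) overlapped. The clusters' CPM were also averaged with equal weight in each library, which gave log2 differences on the CPM scale, averaged over library pairs. They were -0.96 for Tgfb2, -0.10 for Tgfbi, 2.12 for Fst and 1.70 for Inhba (SD over pairs 1.08). The Inhbb difference was 0.12 (SE 0.18) within cluster 3 alone.

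**Figure D3:**
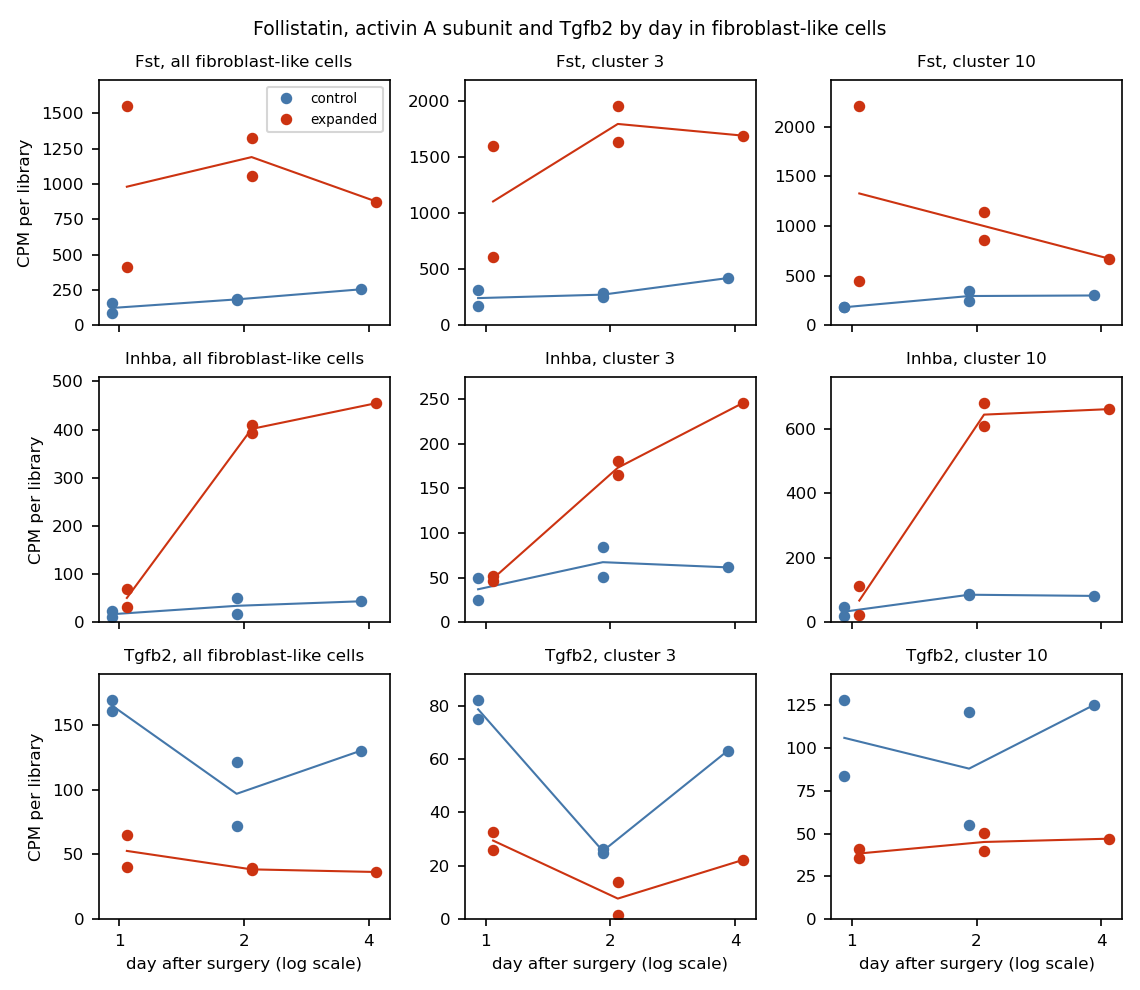
CPM of Fst, Inhba and Tgfb2 (rows) by day on a log axis, in all fibroblast-like cells and in clusters 3 and 10 (columns), with 1 point per library and lines through the daily means. Inhba in all expanded fibroblast-like cells lies at 30.9 and 70.0 CPM on day 1 and between 393 and 455 CPM on days 2 and 4.

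In fibroblast-like cells the expanded libraries had fewer Fst UMIs per Inhba UMI on days 2 and 4 than on day 1. This ratio was not tested, and day 4 had 1 library per arm. There were 13.3 and 22.2 Fst UMIs for each Inhba UMI in the day 1 expanded libraries, 3.38 and 2.57 on day 2 and 1.93 on day 4, against 3.56 to 10.5 in the control libraries. UMI numbers of these genes can be compared as captured molecules only, since both are counted at their 3′ ends. Cells with 1 hashtag gave values per mouse, from 14 control and 9 expanded mice with at least 20 fibroblast-like cells. The lowest, median and highest of these control mice had Fst at 110, 174 and 385 CPM, and the expanded mice had 386, 953 and 1800 CPM. On day 4 Inhba ranged from 36.2 to 87.7 CPM in 4 control mice and from 292 to 610 CPM in 4 expanded mice. On day 1 the 2 expanded mice had 18.4 and 127 CPM, and the highest of 3 control mice had 55.7 CPM, so the arms overlapped. These cells are part of the same libraries, and 45.0% of control against 29.8% of expanded fibroblast-like cells could be given to a mouse, so they add no independent replicate.

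Macrophage or monocyte-like and dendritic-like cells carried a contrast of Tgfbi opposite to that of fibroblast-like cells. Langerhans-like cells had 474 ± 57.6 CPM in control and 498 ± 186 CPM in expanded libraries, which overlapped (log2 difference -0.29, SE 0.24). Tgfbi was also higher in expanded basal keratinocyte-like cells, described below. In macrophage or monocyte-like cells Tgfbi stood at 674, 562, 627, 1152 and 509 CPM in the control libraries and at 1825, 1744, 1585, 1843 and 1694 CPM in the expanded ones. No library of one arm reached the other (log2 difference 1.23, SE 0.18). In dendritic-like cells it stood at 449, 486, 400, 562 and 419 CPM in control and 2005, 1789, 1364, 1227 and 1203 CPM in expanded libraries, also without overlap (log2 1.52, SE 0.13). Of the members tested, 3 of 6 were past the threshold upwards and 1 downwards in macrophage or monocyte-like cells, where 24.5% of genes were past it, and 1 upwards and 1 downwards of 7 in dendritic-like cells, where 8.40% were. The macrophage or monocyte-like class again changed its make-up: cluster 5, led by Chil3 and Ly6c2, held 13.6% of its control and 91.4% of its expanded cells, and cluster 6, led by the complement genes C1qb, C1qc and C1qa, held 86.4% and 8.58%. Tgfbi averaged 1080 ± 289 (n = 4) against 1978 ± 530 CPM (n = 5) in cluster 5 and 609 ± 153 (n = 5) against 1209 ± 182 CPM (n = 3) in cluster 6. In dendritic-like cluster 2 alone, led by Lyz1, Mgl2 and Mmp12, it averaged 486 ± 70.9 and 1567 ± 367 CPM. Macrophage or monocyte-like cells carry Tgfbi too, and the part of the macrophage markers given above in the dendritic-like difference was not tested.

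Per mouse, Tgfbi in dendritic-like cells ran from 296 through a median of 387 to 863 CPM in 7 control mice of day 2, and from 1049 through 1267 to 1592 CPM in 4 expanded mice. On day 4 the 4 control mice lay between 401 and 493 CPM and the 3 expanded mice between 1105 and 1410 CPM. In macrophage or monocyte-like cells the day 2 mice overlapped, from 489 to 1397 CPM in 7 control and from 1271 to 2482 CPM in 7 expanded mice. The day 4 mice did not, with 414 to 786 CPM in 4 control and 1523 to 1929 CPM in 4 expanded mice.

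**Figure D4:**
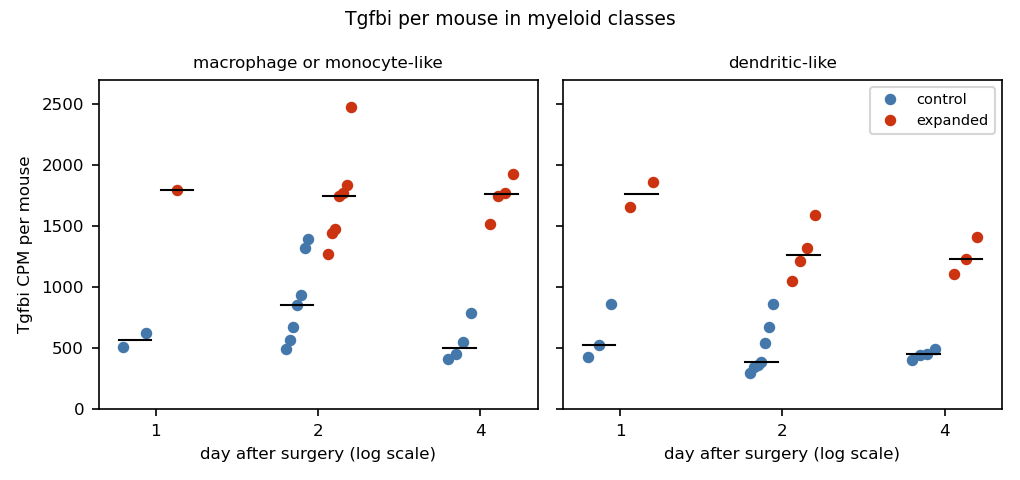
Tgfbi CPM per hashed mouse by day on a log axis in macrophage or monocyte-like (left) and dendritic-like cells (right), with 1 point per mouse of at least 20 cells and a line at the median. In dendritic-like cells every expanded mouse lies above every control mouse of its day, with day 2 ranges of 296 to 863 and 1049 to 1592 CPM.

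Inhba was also higher in expanded macrophage or monocyte-like cells. The control libraries had 7.90, 4.81, 0.699, 48.2 and 25.2 CPM and the expanded ones 6.23, 159, 250, 127 and 447 CPM, with the day 1 round 1 expanded library as low as the controls (log2 difference 3.34, SE 0.79). This difference was 2.57 without the day 1 round 2 expanded library and 4.19 without the day 2 round 2 control library. Within cluster 5 Inhba averaged 68.9 ± 65.0 (n = 4) against 214 ± 176 CPM (n = 5), and in cluster 6 it was 6.68 ± 4.16 CPM (n = 5) against 0.723 ± 1.25 CPM (n = 3). Neutrophil-like cells also carried Inhba, at 178 ± 102 CPM in the expanded libraries. The 6 neutrophil markers summed to between 32.9 and 87.7 CPM in control and 282 and 1873 CPM in expanded macrophage or monocyte-like cells, 1 of the 6 being lower in the expanded arm, and their part in the Inhba difference was not tested. Fst in this class went from 1.80 to 14.8 CPM on average (log2 2.71, and 2.02 without the day 1 round 2 expanded library), and Fstl1 from 21.7 to 5.13 CPM. Both are abundant in fibroblast-like cells. The 6 fibroblast markers, all lower in the expanded arm, summed to between 256 and 3764 CPM in control and 27.1 and 417 CPM in expanded macrophage or monocyte-like cells, and their part in the Fst and Fstl1 differences was not tested. Tgfb1 overlapped between the arms, at 300 ± 26.1 and 290 ± 22.8 CPM. In dendritic-like cells Tgfb1 was lower in all 5 pairs, at 278 ± 32.1 against 239 ± 21.4 CPM (log2 -0.38, SE 0.11), with overlapping ranges.

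Basal keratinocyte-like cells had the highest Fst level among the control classes. Cluster 7, led by Krt24, Lhx2 and Krt15, held 55.1% of the control and 62.2% of the expanded cells of the class. Its second class by markers was hair follicle keratinocyte. Cluster 9, led by Fgfbp1, Apoc1 and Cstdc5, held 44.9% and 37.8%, and its second class was sebaceous. The class is therefore not purely epidermal by its markers. Fst stood at 599, 553, 534, 635 and 920 CPM in control and 377, 653, 963, 1123 and 776 CPM in expanded libraries, which overlapped (log2 0.17, SE 0.21, and -0.44 from sums per mouse). Tgfbi was higher in all 5 pairs, 220 ± 42.1 against 298 ± 34.0 CPM (log2 0.42, SE 0.12), and Inhbb in 4 of 5 pairs, 15.8 ± 4.85 against 24.5 ± 6.92 CPM (log2 0.76, SE 0.19). Tgfb2 was lower in all 5 pairs, 40.7 ± 34.8 against 16.5 ± 9.04 CPM (log2 -1.31, SE 0.35), a value of -0.83 without the day 1 round 1 control library. Fstl1 was likewise lower in all 5 pairs, 30.6 ± 20.8 against 11.3 ± 3.73 CPM (log2 -1.35, SE 0.27). Of the 9 genes, 2 were past the threshold upwards and 2 downwards, beside 11.8% of all genes tested in the class. Fibroblast markers moved with Fstl1 and Tgfb2 here too: all 6 were lower in the expanded arm, with sums of 219 to 6012 CPM in control and 15.4 to 250 CPM in expanded libraries, and their part was not tested.

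The dermal papilla or sheath-like class, low in some of its markers, had the highest mean Inhba in both arms, with no shared direction over the pairs. The control libraries had 66.1, 320, 87.4, 473 and 549 CPM and the expanded ones 60.0, 135, 397, 343 and 527 CPM (log2 -0.26, SE 0.48). The sign depended on the setting, with 0.60 in cluster 1 alone and 0.74 from sums per mouse. Inhba differed between the clusters of the class: it averaged 1449 ± 623 CPM (n = 3 control libraries) and 1177 ± 509 CPM (n = 4 expanded) in cluster 11, led by Slc26a7, Igfbp3 and Pappa2 with Lef1 and Rspo3 among its 10 leading genes. Cluster 1, led by Coch, Fmod and Cck, held 65.8% of the control and 69.8% of the expanded cells of the class. Inhba averaged 52.6 ± 20.9 and 82.2 ± 36.8 CPM there. Over the whole class Fst was higher without overlap, 66.5 ± 17.3 against 142 ± 47.7 CPM (log2 1.05, SE 0.26). In cluster 1 alone its difference was 1.79 (SE 0.28), while in cluster 11 it averaged 166 ± 137 CPM in 3 control and 54.8 ± 16.8 CPM in 4 expanded libraries. Tgfb2, lower in fibroblast-like cells, was higher here in all 5 pairs: 59.6, 77.8, 53.4, 52.5 and 64.5 CPM in control against 126, 176, 55.9, 73.1 and 115 CPM in expanded libraries (log2 0.71, SE 0.17). The ranges overlapped through the 2 day 2 libraries of the expanded arm. Of the 9 genes, 2 were past the threshold, both upwards, beside 4.56% of all genes tested. The count over all genes was 547, and 1383 with the sequencing round as a block.

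Inhbb, higher in expanded fibroblast-like and basal keratinocyte-like cells, was also higher in endothelial-like cells, which line blood vessels. Hair follicle keratinocyte-like cells had 3.55 ± 2.65 against 16.1 ± 5.42 CPM (n = 4 each, log2 2.23, SE 0.55). In endothelial-like cells Inhbb had 10.8, 37.9, 9.90, 18.6 and 22.6 CPM in control libraries and 32.8, 47.8, 129, 65.4 and 110 CPM in expanded ones. It was higher in all 5 pairs, with overlap on day 1 (log2 1.56, SE 0.39), and it was the 1 member of 7 past the threshold, beside 11.1% of genes. Without the day 1 round 2 control library the value was 2.29. In lymphatic endothelial-like cells Tgfb3 averaged 52.1 ± 12.4 against 25.8 ± 13.6 CPM and was lower in all 5 pairs.

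In smooth muscle-like cells Fstl1 was higher and Tgfb2 lower in all 5 pairs. Fstl1 had 410, 319, 349, 290 and 294 CPM in control and 415, 471, 624, 713 and 627 CPM in expanded libraries, and the arms did not overlap, although the highest control and lowest expanded library, both of day 1, were close (log2 0.64, SE 0.18). Tgfb2 averaged 75.9 ± 39.0 against 34.3 ± 10.7 CPM (log2 -1.18). These were the members past the threshold, 2 of 8, beside 15.7% of genes. Inhba had 154, 136, 186, 153 and 111 CPM in control and 151, 71.7, 203, 310 and 394 CPM in expanded libraries, so that the expanded libraries were at or below the controls on day 1 and above all of them on days 2 and 4. Of the 6 fibroblast markers 5 were lower in the expanded arm of this class, with sums of 449 to 20018 CPM in control and 775 to 12427 CPM in expanded libraries. None of the 6 neutrophil markers was lower, and their sums were 0 to 2.99 CPM in control and 5.58 to 917 CPM in expanded libraries. The part of these markers in the Tgfb2, Fstl1 and Inhba differences was not tested.

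Whether the difference between the arms changed with time was tested as an interaction of arm with log2 of the day. This is a different contrast from the difference between the arms. The genes were chosen with results of these libraries known, so the members' adjusted p-values below are not independent evidence. No gene passed in any of the 7 classes (0% of genes called, edgeR, adjusted over all genes). Genes with an unadjusted edgeR p below 0.05 ran from 192 of 10902 tested in macrophage or monocyte-like cells to 769 of 13251 in fibroblast-like cells. Without any effect a share of about 0.05 would lie below that level. After adjustment DESeq2 called 84 genes over the 7 classes. With the sequencing round as a block the count was 27. Inhba had an interaction of 1.06 per doubling of the day in fibroblast-like cells (edgeR adjusted p = 0.856) and of 1.11 in smooth muscle-like cells (edgeR adjusted p = 0.396). In the latter class DESeq2 gave an adjusted p of 0.032. The log2 ratios of Inhba CPM in expanded to control smooth muscle-like cells were -0.36 on day 1, 0.58 on day 2 and 1.78 on day 4. Fst had an interaction of -0.54 in fibroblast-like cells (edgeR adjusted p = 0.909). With 1 pair of libraries on day 4, these data give little precision on the course over time.

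The rest of the pathway was read from a list of 52 genes: other ligands, receptors, latency and activation genes, SMADs with feedback genes, and known target genes. Like the 9 genes, this list was drawn up with results of these libraries known, so its counts and adjusted p-values are not independent evidence of a change in the pathway. In fibroblast-like cells 48 were tested, of which 11 rose and 13 fell (edgeR, adjusted over all genes), that is 24 of 48, and 34.4% of all genes were called in this class. Their median log2 difference was 0.12 against 0.017 over all genes tested. Target genes divided evenly, with 5 of 15 rising and 5 falling. Those that rose included Timp1, an inhibitor of matrix proteases, from 140 ± 125 to 1283 ± 769 CPM (log2 2.98, SE 0.41, edgeR adjusted p = 0.00048), and Ccn2, a matricellular growth factor gene, from 35.5 ± 15.5 to 187 ± 53.7 CPM (log2 2.14, adjusted p = 0.00084). Tagln, an actin-binding protein gene, rose from 2.09 ± 2.19 to 18.9 ± 13.5 CPM (log2 2.94, edgeR adjusted p = 0.0012). The collagen genes Col1a1, from 41277 to 12369 CPM (log2 -2.14, edgeR adjusted p = 0.00077), and Col3a1 (log2 -1.52, adjusted p = 0.00045) fell, as did Fn1, which encodes fibronectin (log2 -1.56, adjusted p = 0.00074).

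Other lists in fibroblast-like cells also held both directions. Of 9 receptor genes tested 1 rose and 3 fell, of 9 latency and activation genes 2 rose and 3 fell, and of 12 SMAD and feedback genes 1 rose and 2 fell. Itgb8, an integrin subunit that activates latent TGF-beta, rose from 0.723 to 4.57 CPM (log2 2.30, SE 0.52, edgeR adjusted p = 0.0060). Ltbp4, a latent TGF-beta binding protein gene, fell (log2 -1.0, SE 0.21, edgeR adjusted p = 0.0042), and so did Smad3, the gene of a signal transducer of the pathway (log2 -1.0, SE 0.15, edgeR adjusted p = 0.00059). Mstn, the gene of the activin-related ligand myostatin, rose but from very few UMIs, 0.123 to 2.53 CPM (log2 3.44, SE 0.99, edgeR adjusted p = 0.020). Of the 24 genes called, 22 could be tested within cluster 10 and 19 of them were called there in the same direction. In cluster 3, 23 could be tested and 15 were called in the same direction. Tagln, Ccn2 and Smad3 were not called within cluster 3 (edgeR adjusted p = 0.087, 0.061 and 0.414).

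**Figure D5:**
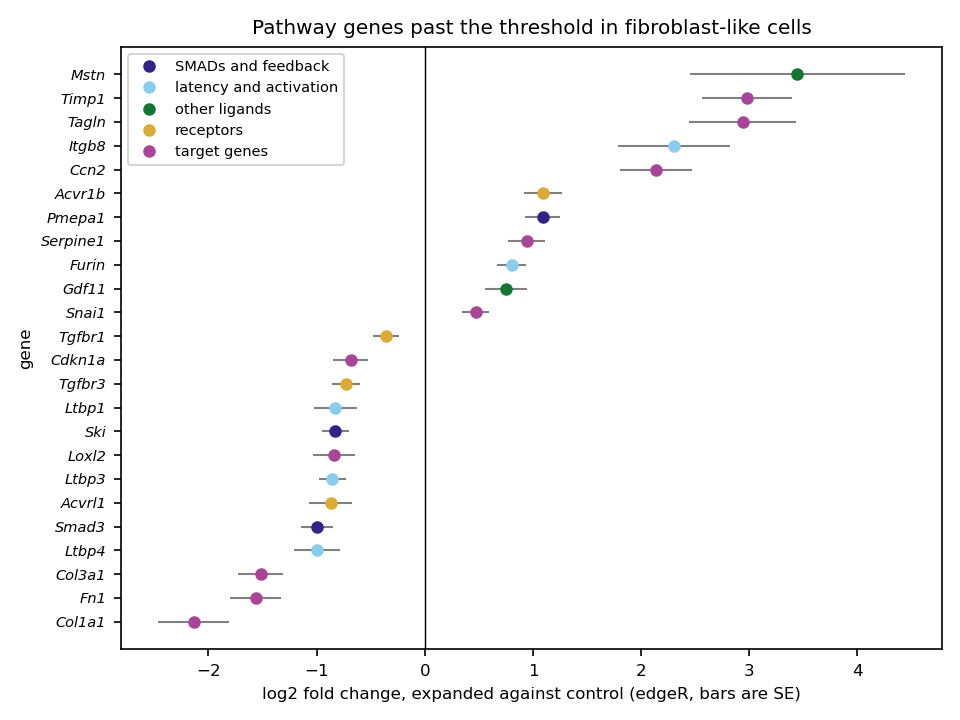
Log2 difference between expanded and control fibroblast-like cells (x axis) for the 24 pathway genes past the threshold (y axis), coloured by list, with bars of 1 SE from edgeR. Target genes lie at both ends, from Timp1 at 2.98 to Col1a1 at -2.14.

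The counts in the other 6 classes are given beside the share of all genes called there, and the classes were not compared. Macrophage or monocyte-like cells had 6 pathway genes higher and 9 lower of 40 (24.5% of all genes called), and basal keratinocyte-like cells 0 and 8 of 44 (11.8%). Dendritic-like cells had 2 and 5 of 41 (8.40%), and dermal papilla or sheath-like cells 1 and 1 of 46 (4.56%). Endothelial-like cells had 2 and 8 of 44 (11.1%), and smooth muscle-like cells 4 and 7 of 42 (15.7%). Timp1 rose in 6 of the 7 classes, by a log2 of 1.73 in macrophage or monocyte-like, 1.98 in dendritic-like, 2.59 in dermal papilla or sheath-like, 2.18 in endothelial-like and 2.16 in smooth muscle-like cells (edgeR adjusted p between 0.00048 and 0.0064 with the fibroblast-like value). In basal keratinocyte-like cells its levels were 5.94 ± 6.74 and 6.62 ± 2.48 CPM. Macrophage or monocyte-like cells had more Thbs1, which encodes the TGF-beta activator thrombospondin 1 (397 ± 318 to 1753 ± 1428 CPM, log2 2.07, edgeR adjusted p = 0.030), and more Fn1 (log2 1.90, adjusted p = 0.0037). Col1a1 fell there (log2 -3.82, edgeR adjusted p = 0.0020), as did Col3a1 (log2 -3.53, adjusted p = 0.0019). Basal keratinocyte-like cells showed the same 2 collagens lower (log2 -3.92 and -3.67, edgeR adjusted p = 0.0096 and 0.0061). The fibroblast marker sums given above for these 2 classes, of which Col1a1 is itself a part, were lower too. Their part in the collagen differences was not tested.

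Dendritic-like cells had more Acvr2a, an activin receptor gene (12.6 ± 3.14 to 28.2 ± 11.6 CPM, log2 0.91, edgeR adjusted p = 0.037), and less Acta2 and Tagln (log2 -3.97 and -3.36, adjusted p = 0.039 and 0.045). All 6 fibroblast markers were lower in the expanded arm of this class too, with sums of 457 to 6483 CPM in control and 89.4 to 2941 CPM in expanded libraries, and their part was not tested. Fn1 fell in dermal papilla or sheath-like cells (log2 -1.62, edgeR adjusted p = 0.020). In endothelial-like cells Thbs1 rose (log2 0.65, edgeR adjusted p = 0.041), and Col3a1 (log2 -2.34, adjusted p = 0.049) and Ltbp1 (log2 -1.49, adjusted p = 0.0099) fell. All 6 fibroblast markers were lower there as well, with sums of 822 to 1733 CPM in control and 15.6 to 1940 CPM in expanded libraries, and their part was not tested. In smooth muscle-like cells Loxl2, a collagen cross-linking enzyme gene, rose (45.5 ± 28.6 to 162 ± 36.7 CPM, log2 1.85, edgeR adjusted p = 0.0066). Smad3 (log2 -1.58, edgeR adjusted p = 0.031) and Bambi, the gene of a decoy receptor (log2 -1.50, adjusted p = 0.0026), fell there.

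The share of each gene's UMIs that came from a class reflects both the level per cell and how many cells of the class were captured, and 9007 control but 1832 expanded cells were fibroblast-like. On average over libraries, 71.3% of Tgfb2 UMIs came from fibroblast-like cells in the control arm and 25.1% in the expanded arm, in which dermal papilla or sheath-like cells gave 37.1%. For Tgfbi the fibroblast-like share was 64.2% and 15.8%, and that of macrophage or monocyte-like cells 12.2% and 46.4%. Fst came from fibroblast-like cells in both arms (52.4% and 46.5%) with basal keratinocyte-like cells next (29.5% and 41.2%). Inhba came from dermal papilla or sheath-like cells (41.6% and 26.6%), fibroblast-like cells (27.9% and 30.3%) and, in the expanded arm, macrophage or monocyte-like cells (2.51% and 24.5%). Unnamed clusters gave 12.5% and 4.01% of Inhba UMIs in the control and expanded arm. Their shares were 17.7% and 8.72% for Fstl3, 15.4% and 8.02% for Tgfb3, and 14.2% and 8.82% for Fstl1.

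Over 35 units formed by class and arm, the genes whose mean log2 levels were most like those of each member, out of 7696 genes, are a description, since the units share libraries and cells. Fst was nearest to Adh7 (Pearson r 0.90), Ism1 and Tmem45a, and Inhba to Sod2 (0.85), Ifitm1 and Crispld2. Inhbb was nearest to Mcc (0.81), S100a16 and Ghr. For Tgfb1 they were Fli1 (0.89), Rara and Crlf2, for Tgfb2 Tnfrsf12a (0.91), Mpdz and Nfia, and for Tgfb3 Samd4 (0.85), Ackr3 and Cry2. Fstl1 followed the elastic fibre genes Fbn1 (0.95) and Eln and then Serping1, and Fstl3 followed Axl (0.94), Gpx8 and Atf5. Tgfbi was nearest to Ctsh (0.87), Lacc1 and Rab7b.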

How the data were processed

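Single-cell mRNA was counted in 10 libraries, and hashtags, which mark the mouse of origin, in 8 samples. UMI counts per gene and cell were deposited by the authors, made with Cell Ranger 6.1.2 on mm10 per the submitters' processing notes; whether counting used strand is not given in the sources used here. The 9 genes and all lists were chosen with earlier results of these data known. Of 55174 barcodes, 47251 passed the filters (200 genes and 500 UMIs or more, mitochondrial share no higher than 10%). From these, 1763 doublets called by Scrublet or by hashtag counts were removed. The day 1 round 1 libraries had no hashtags, so only Scrublet could call doublets there. Libraries of 1 arm and day pool different mice, so p-values measure only the spread between these libraries. At most 0.413% of the smaller library's barcodes were shared between libraries.

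Cells were clustered with scanpy 1.11.5 and leidenalg 0.10.2 (2000 variable genes, 30 components, 15 neighbours, resolution 1), and a cluster was named from at least 3 markers. Counts were summed per class and library with at least 20 cells. They were fitted in R 4.3.3 with edgeR 4.0.16 (quasi-likelihood test, TMM, low-count filter, day as a covariate) over all genes with Benjamini-Hochberg adjustment at 0.05, in classes with at least 1% of the 9 genes' UMIs. Pathway genes named are the 5 largest log2 differences past the threshold in each direction in fibroblast-like cells and 2 in each direction elsewhere; the 3 most similar genes had to reach 50 CPM in a unit. Libraries of 1 arm each share a sequencing round by the labels: differences between rounds correlated between the arms at 0.117 to 0.276 on day 1 and 0.017 to 0.350 on day 2. Hashtags were assigned with Seurat 5.3.0. Alternatives were DESeq2 1.42.0, no filter, the round as a block, cells thinned to 2000 UMIs, sums per mouse and each library left out; single clusters and equal cluster weights were added after seeing the data. The scripts were tested on simulated data.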

Additional observations from a re-analysis of the deposited data

Results flagged for a closer look

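Some libraries stood apart from the other 4 of their arm in 1 class, a gap that chance gives in about 1 in 20 groups. Among control libraries these were Fst at 920 CPM (day 4), Tgfb2 at 102 CPM (day 1 round 1) and Tgfb1, below the others, at 24.2 CPM (day 2 round 1) in basal keratinocyte-like cells, Fstl3 at 56.7 CPM in smooth muscle-like cells (day 2 round 1) and Tgfbi at 1152 CPM in macrophage or monocyte-like cells (day 2 round 2). Among expanded libraries they were Fstl1 at 122 CPM in dendritic-like cells (day 4), Tgfb2 at 64.8 CPM in fibroblast-like cells (day 1 round 1) and Tgfbi at 61.7 CPM in dermal papilla or sheath-like cells (day 4).

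For 3 genes, classes went opposite ways in all 5 pairs of libraries, and the difference between the classes was not tested. Tgfb1 was higher in expanded basal keratinocyte-like (log2 difference 0.098, but -0.13 with thinned cells and -0.04 in cluster 7 alone) and fibroblast-like cells (0.49) and lower in dendritic-like cells (-0.38). Tgfb2 was higher in dermal papilla or sheath-like cells (0.71) and lower in basal keratinocyte-like (-1.31), fibroblast-like (-1.82) and smooth muscle-like cells (-1.18). Fstl1 was higher in smooth muscle-like cells (0.64) and lower in basal keratinocyte-like (-1.35) and macrophage or monocyte-like cells (-2.12).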

How the results depend on the processing

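Single clusters were fitted only where all 10 libraries had at least 20 cells, so some clusters were left out. In some of those, mean levels went the other way from the class. These were Fst in dermal papilla or sheath-like cluster 11, and Inhba in fibroblast-like cluster 0 and macrophage or monocyte-like cluster 6. Under the alternatives that were fitted, no log2 difference of the 9 genes that was past the threshold changed sign. Several differences that were not past it changed sign, among them Inhba in dermal papilla or sheath-like cells (-0.26, and 0.30 without control day 1 round 2). Others were Tgfb2 in macrophage or monocyte-like cells (-0.25, and 0.19 without control day 4) and Tgfbi in smooth muscle-like cells (-0.09, and 0.32 without control day 2 round 1). Fstl3 in basal keratinocyte-like cells did so too (0.15, and -0.06 without expanded day 1 round 1). Fstl1 in fibroblast-like cells had -0.38 on the TMM scale and 0.05 with equal cluster weights, which are on the CPM scale. With thinned cells 41 differences moved by less than the SD over library pairs (or the SE where larger) and 3 by more, with equal cluster weights 38 and 9, in single clusters 47 and 10, per mouse 36 and 6, by DESeq2 54 and 1, and 55 and 0 with the sequencing round as a block or without the low-count filter. Thinned and single-cluster fits held fewer UMIs or cells. The number of genes past the threshold depended more on the processing, and the cause was not tested. Thinned to 2000 UMIs per cell it was 2337 in fibroblast-like, 1676 in macrophage or monocyte-like, 289 in basal keratinocyte-like, 329 in dendritic-like, 218 in dermal papilla or sheath-like, 404 in endothelial-like and 592 in smooth muscle-like cells. Without the filter it was 2174 in basal keratinocyte-like, 1914 in dendritic-like, 1509 in dermal papilla or sheath-like and 1743 in endothelial-like cells. DESeq2 called 1341 in dendritic-like and 888 in dermal papilla or sheath-like cells, and the fit with the sequencing round as a replicate block 1342 and 1383; the block changed no other count between the arms by over 1.5 times. Sums per mouse gave 4137 in macrophage or monocyte-like, 2495 in dendritic-like and 497 in endothelial-like cells, and were not run for smooth muscle-like cells. Single clusters gave 2135 (cluster 3) and 2785 (cluster 10) in fibroblast-like and 118 (cluster 7) and 1677 (cluster 9) in basal keratinocyte-like cells. They gave 1542 in dendritic-like (cluster 2) and 1091 in dermal papilla or sheath-like cells (cluster 1). Pathway genes called numbered 0 in basal cluster 7, 11 in basal cluster 9, 9 in dermal papilla or sheath-like cluster 1 and 6 in endothelial-like cluster 8. Over the 7 classes they numbered 120 without the filter, against 77.

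Leaving out 1 library at a time, the lowest and highest counts were 3413 and 4472 in fibroblast-like, 1386 (without control day 4) and 2985 in macrophage or monocyte-like, 523 (without expanded day 1 round 2) and 1505 in basal keratinocyte-like, 235 (without control day 1 round 2) and 1065 in dendritic-like, 180 (without control day 1 round 2) and 1014 (without control day 2 round 2) in dermal papilla or sheath-like, 625 (without control day 4) and 1140 in endothelial-like, and 544 (without expanded day 4) and 1289 in smooth muscle-like cells. Over the 7 classes, pathway genes called ranged from 54 to 76. The interaction of arm and day called 1 gene with day as a number, 27 with the replicate block, 84 by DESeq2 and 1118 without the filter, and between 0 and 4 with 1 library left out. The members were chosen with results of these libraries known, so staying past the threshold is a description and not independent evidence. Of the members past the threshold, those in macrophage or monocyte-like cells, Tgfbi in dendritic-like cells and Fst, Inhba, Inhbb, Tgfb2 and Tgfbi in fibroblast-like cells stayed past it without any 1 library. Tgfb1 in fibroblast-like cells, which lay at the threshold, Tgfb2 in dendritic-like cells and the members past it in basal keratinocyte-like, dermal papilla or sheath-like, endothelial-like and smooth muscle-like cells each dropped below it without at least 1 library.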
